A study of Homo sapiens with 15 samples.

Results

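The 10 genes described here belong to the cellular response to low oxygen. All 10 were chosen by name from the 18858 genes of the count table, with earlier results of these data known. They are HIF1A and EPAS1, which encode the oxygen-regulated subunits HIF-1α and HIF-2α, EGLN1 and EGLN3, which encode prolyl hydroxylases, and 6 genes known as targets of these factors, CA9, CA12, BNIP3, BNIP3L, NDRG1 and ANKRD37. Their RNA was measured in MDA-MB-231 cells, an established line of human triple-negative breast cancer cells that degrade the matrix beneath them. The study asked what the transcriptional co-regulators YAP and TAZ of the Hippo pathway do in such cells. The labels name no low-oxygen treatment, and every comparison below is between transfected or untransfected cells.

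The 5 groups had 3 libraries each. Control cells (libraries 16, 21 and 26) were not transfected, and siControl cells (17, 22 and 27) received a non-targeting siRNA pool. The siYAP cells (18, 23 and 28) received a pool against YAP1, the siTAZ cells (19, 24 and 29) a pool against WWTR1, the gene encoding TAZ, and the siYAP+TAZ cells (20, 25 and 30) both pools. Each pool was used at 30 nM, which makes 60 nM in the siYAP+TAZ cells, and the larger amount of siRNA cannot be told apart from the co-knockdown in these groups. RNA was taken after 48 h of knockdown and a further 5 to 6 h of culture on a gelatin layer. The study's supplement describes 3 independent sets of experiments, but neither it nor the labels say which libraries make up a set, and the p-values measure the spread between these libraries.

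HIF is a pair of proteins, an oxygen-regulated α subunit and the constant partner ARNT. When oxygen is present, prolyl hydroxylases of the EGLN family modify the α subunit, the VHL ubiquitin ligase binds it, and it is degraded. When oxygen falls, the α subunit persists, enters the nucleus and switches on genes for glycolysis, pH control, vessel growth and mitophagy, several of which, such as CA9, are widely used as markers of hypoxic tumour regions. Much of this control acts on the HIF-α protein, which RNA counts do not measure.

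The libraries held between 18696737 and 30107312 counted reads, with a median of 22902846. YAP1 RNA in the 3 siYAP libraries was 23.4%, 64.0% and 17.6% of the siControl mean, and in the siYAP+TAZ libraries 51.8%, 51.0% and 41.5%. WWTR1 RNA was 45.8%, 14.1% and 28.8% of that mean in the siTAZ libraries and 62.7%, 62.1% and 71.0% in the siYAP+TAZ libraries, so the co-knockdown libraries kept more YAP1 RNA than 2 of the 3 siYAP libraries and more WWTR1 RNA than all 3 siTAZ libraries. On the second principal component, which held 17.6% of the variance, libraries 26 to 30 and siTAZ 24 had negative values (−36.3 to −6.54). The other 9 had positive values (4.21 to 35.2), and the values formed a graded spread rather than separate clusters. Below, these 6 are called the libraries that stood apart, by sign alone and after the data were seen. Of the 6 markers of the cell line, all were expressed, and AXL (log2 fold change −0.51, edgeR adjusted p = 0.00020) and CAV1 (−0.35, 0.0065) fell in siYAP+TAZ against siControl. GATA3 and KRT8 had been listed as low in such cells, but KRT8 averaged 24065 normalized counts in siControl and was not low. Of 8 markers of other cell types, 4 were measured, with PTPRC at 0 to 6 reads, and their summed level was 330.4 to 554 normalized counts in siControl and 669 to 816 in siYAP+TAZ. PDGFRB, a receptor of mesenchymal cells, rose (log2 fold change 1.60, edgeR adjusted p = 0.00099). COL1A1 (mean 369 in siControl and 495 in siYAP+TAZ, log2 fold change 0.42, adjusted p = 0.22) and ACTA2 (17.2 and 30.2, 0.80, adjusted p = 0.051) also lay above siControl without overlap but did not pass, and the part of these markers in the results below was not tested.

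Co-knockdown raised most of the set. Set against siControl, 7 of the 10 genes rose in siYAP+TAZ at an edgeR adjusted p of at most 0.05, against 9.97% of all genes, and none fell. Of the 7, CA9, CA12, NDRG1 and EGLN3 also passed an absolute log2 fold change of 1, as did 3.14% of all genes in the upward direction. The siYAP+TAZ libraries lay above every siControl library for 8 genes, against 18.2% of all genes. Because the 10 genes were chosen with earlier results of these data known, these counts and shares are descriptions. A fit without the 6 libraries that stood apart, chosen after seeing the data, leaves 2 siYAP+TAZ and 2 siControl libraries and is described with the alternatives. The median log2 fold change was 0.65 over the 10 genes and −0.0048 over all genes. Over all genes 1881 rose and 1583 fell, and 2152 and 1194 when libraries were scaled by their totals alone. In RNA from bulk cells, a change in the share of cells that express a gene and a change in RNA per cell cannot be told apart.

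**Figure D1:**
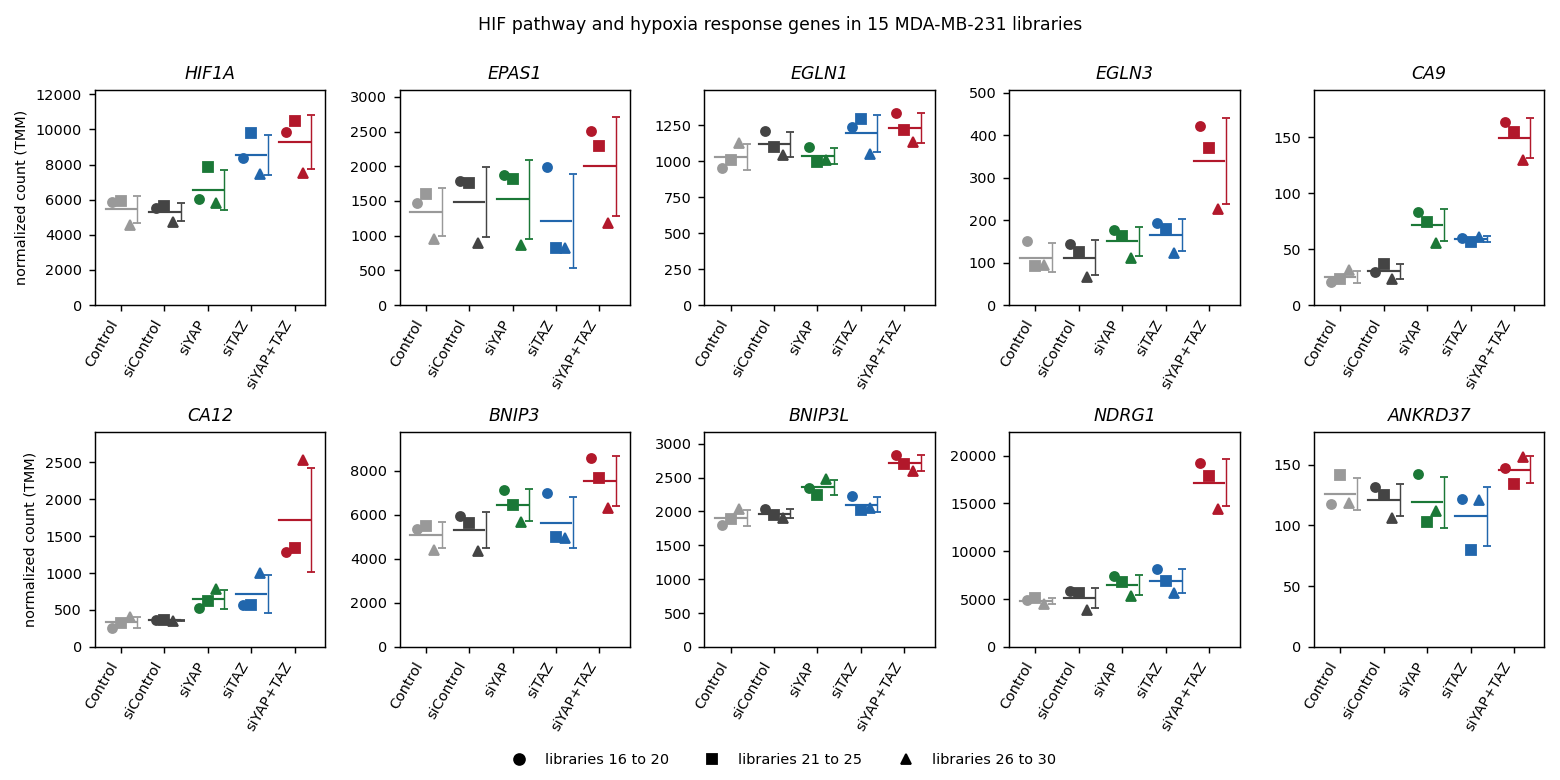
Normalized counts (y axis, linear, from 0) of the 10 genes in the 5 groups (x axis), with 1 point per library, a line at the mean of 3 libraries and a bar of ± 1 SD. The siYAP+TAZ points of CA9, CA12, EGLN3, NDRG1 and BNIP3L lie above all 12 other libraries, while those of EPAS1 and EGLN1 overlap the other groups.

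HIF1A (ENSG00000100644, GRCh38 chr14:61695513-61748259, plus strand) was already high in the reference cells. Its normalized counts were 5868, 5941 and 4576 in Control, 5545, 5666 and 4740 in siControl, 6010, 7876 and 5804 in siYAP, 8362, 9769 and 7478 in siTAZ, and 9829, 10456 and 7527 in siYAP+TAZ. All 3 knockdown groups lay above siControl without overlap, siYAP by the least, and the siTAZ and siYAP+TAZ libraries overlapped each other. HIF1A rose 1.74-fold in siYAP+TAZ (log2 fold change 0.80, SE 0.15, edgeR adjusted p = 0.0019) and in siTAZ (0.68, SE 0.15, adjusted p = 0.031), and its value in siYAP was 0.30 (SE 0.15, adjusted p = 0.46). The siTAZ call was lost without siControl 17, siControl 22, siControl 27 or siTAZ 24, at adjusted p values of 0.093, 0.088, 0.098 and 0.19, and with scaling by library totals alone (0.052).

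HIF1A-AS3, a long non-coding RNA gene on the opposite strand of HIF1A, went the other way. It measured 427, 390.2 and 291 normalized counts in siControl, 398, 203 and 209.5 in siYAP, 201 (library 19), 63.3 and 83.5 in siTAZ, and 152, 99.9 and 113 in siYAP+TAZ. Co-knockdown lowered it by 1.61 on the log2 scale (log2 fold change −1.61, SE 0.39, edgeR adjusted p = 0.014), and the siTAZ value of −1.63 did not pass (adjusted p = 0.059). Of the exonic bases of HIF1A, 8.39% lie opposite HIF1A-AS1 or HIF1A-AS3, and whether counting used the strand is not given in the sources used here, so reads from that stretch cannot be assigned. Stretches of 50 bases shared with other annotated genes made up 16.9% of HIF1A-AS3, mainly with NMNAT3. HIF1A-AS1 and HIF1A-AS2 were not analysed here.

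EPAS1 (ENSG00000116016, chr2:46293667-46386697, plus strand) varied more between libraries of a group than between groups. It measured 1472, 1606 and 951 in Control, 1793, 1761 and 897 in siControl, 1877, 1817 and 872 in siYAP, 1996, 822 and 829 in siTAZ, and 2511, 2296 and 1188 in siYAP+TAZ. Libraries 26 to 30 and siTAZ 24 held 822 to 1188 normalized counts and the other 9 libraries 1472 to 2511, with no overlap, whatever the knockdown. The log2 fold change in siYAP+TAZ was 0.42 with a 95% interval of −0.48 to 1.33 (edgeR adjusted p = 0.60). Without those 6 libraries it was 0.45. That fit was chosen after seeing the data and drops the libraries in which EPAS1 was low, so its p is not given. Across the 15 libraries the log2 CPM of EPAS1 had an r of 0.92 with the second principal component, a description over libraries that share groups and depth. The next closest genes of the set were BNIP3 (0.84) and EGLN3 (0.69).

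The prolyl hydroxylases differed from each other. EGLN1, also called PHD2 and the main oxygen sensor in most cells, measured 953, 1010 and 1125 in Control, 1209, 1098 and 1042 in siControl, 1099, 994 and 1010 in siYAP, 1237, 1295 and 1046 in siTAZ, and 1338, 1217 and 1130 in siYAP+TAZ. All knockdown groups overlapped siControl. Its log2 fold change of 0.14 had a 95% interval of −0.048 to 0.32 (edgeR adjusted p = 0.36), and over all 15 libraries its highest level was 1.40 times its lowest. The gene (ENSG00000135766, chr1:231363751-231422287, minus strand) shares 55.8% of its exonic bases with another annotated gene of the same strand, and how reads from that stretch were counted is not given in the sources used here.

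EGLN3 (ENSG00000129521, chr14:33924227-34462774, minus strand), also called PHD3 and itself a HIF target, was expressed at far lower levels. It measured 151, 90.9 and 93.4 in Control, 144, 125 and 65.4 in siControl, 177, 161 and 111 in siYAP, 194, 178 and 123 in siTAZ, and 422, 371 and 227 in siYAP+TAZ. The lowest co-knockdown library lay above the highest library of every other group, and both single knockdown groups overlapped siControl. EGLN3 rose 3.01-fold in the co-knockdown (log2 fold change 1.59, SE 0.31, edgeR adjusted p = 0.0027). Its values in siYAP and siTAZ were 0.42 (adjusted p = 0.67) and 0.56 (adjusted p = 0.42).

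The carbonic anhydrases CA9 and CA12, membrane enzymes that hydrate carbon dioxide outside the cell and so take part in pH control, changed by the largest factors of the 10 genes. CA9 (ENSG00000107159, chr9:35673928-35681159, plus strand) was close to the lower end of detection, with 20 to 40 reads in each Control and siControl library. Its normalized counts were 21.0, 23.3 and 31.6 in Control, 29.8, 37.0 and 23.6 in siControl, 83.5, 74.7 and 55.5 in siYAP, 60.3, 56.3 and 60.4 in siTAZ, and 164, 155 and 129 in siYAP+TAZ. The groups formed 3 steps without overlap, the references lowest, the single knockdowns between, and the co-knockdown highest. CA9 rose 4.91-fold in siYAP+TAZ (log2 fold change 2.29, SE 0.21, edgeR adjusted p = 8.6e-07). Of its exonic bases, 35.7% lie opposite ARHGEF39, which itself measured 152 to 191 in siControl and 170 to 179 in siYAP+TAZ (log2 fold change 0.025, adjusted p = 0.93).

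CA12 (ENSG00000074410, chr15:63321378-63381846, minus strand) had a higher starting level, with a narrow range in siControl. It measured 263, 326 and 405 in Control, 363, 365 and 347 in siControl, 533, 616 and 788 in siYAP, 563, 573 and 1006 in siTAZ, and 1278, 1344 and 2530 in siYAP+TAZ. The co-knockdown libraries were above all others, both single knockdown groups were above siControl without overlap, and library 30 held nearly as much CA12 as libraries 20 and 25 together. CA12 rose 4.80-fold in siYAP+TAZ (log2 fold change 2.26, SE 0.31, edgeR adjusted p = 0.00048).

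To show the DNA in front of genes that moved and of one that did not, promoter windows of 300 bases (250 before and 50 after the RefSeq transcription start, GRCh38.p14) were searched on both strands for the HIF core motif, ACGTG or GCGTG. Windows were found for 8 of the 10 genes, 9 in all. The core occurred in 48.4% of the 35116 promoters of the same length, so a match sets no gene apart. BNIP3 held 6 matches, ANKRD37 3, CA12 2, CA9, EGLN1 and EPAS1 1 each, the 2 HIF1A windows 1 and 0, and EGLN3 0. Beside these counts, CA9 with 1 match rose 4.91-fold, EGLN3 with 0 matches 3.01-fold, and BNIP3 with 6 matches 1.41-fold. The second CA12 match lies after the start and is not shown. The motif CACGTG holds the core on both strands, so each such stretch counts as 2 overlapping matches above. It was found in BNIP3 and ANKRD37 and in 7.26% of all promoters. GGAATG, bound by the TEAD partners of YAP and TAZ, was in none of the 9 windows and in 14.0% of all promoters, and TGANTCA, bound by AP-1, was in the CA9 window alone, 77 bases before the start, and in 7.71% of all promoters. A match is a description of letters and not a bound site, and sites farther away were not searched. The sequences below run 5′ to 3′ on the strand of the gene, with core matches of either strand in capitals, and stop where an annotated exon begins. For CA9 the 30 bases before the start are given.
CA9 (chr9:35673898-35673927, plus strand): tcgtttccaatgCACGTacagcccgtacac
CA12 (chr15:63381847-63382096, minus strand): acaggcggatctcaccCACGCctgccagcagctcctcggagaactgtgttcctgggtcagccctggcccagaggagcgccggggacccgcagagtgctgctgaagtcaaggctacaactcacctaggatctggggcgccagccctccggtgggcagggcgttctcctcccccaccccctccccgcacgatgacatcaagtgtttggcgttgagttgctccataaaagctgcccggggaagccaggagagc
EGLN3 (chr14:33951082-33951324, minus strand): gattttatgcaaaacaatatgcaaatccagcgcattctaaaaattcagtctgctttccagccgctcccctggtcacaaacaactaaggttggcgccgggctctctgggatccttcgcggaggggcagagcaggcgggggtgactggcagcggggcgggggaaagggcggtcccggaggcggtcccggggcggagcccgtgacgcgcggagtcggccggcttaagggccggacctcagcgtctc
BNIP3 (chr10:131981968-131982173, minus strand): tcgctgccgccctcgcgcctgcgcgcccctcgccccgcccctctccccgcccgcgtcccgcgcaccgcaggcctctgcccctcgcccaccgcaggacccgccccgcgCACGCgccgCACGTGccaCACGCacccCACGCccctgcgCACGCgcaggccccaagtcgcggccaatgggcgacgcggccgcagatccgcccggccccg
ANKRD37 (chr4:185396591-185396810, plus strand): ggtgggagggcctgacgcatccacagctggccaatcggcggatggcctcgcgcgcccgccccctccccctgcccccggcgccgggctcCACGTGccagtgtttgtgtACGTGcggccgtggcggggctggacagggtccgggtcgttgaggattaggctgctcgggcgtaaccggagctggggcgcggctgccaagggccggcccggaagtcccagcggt

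BNIP3 and BNIP3L, related proteins of the outer mitochondrial membrane that recruit the autophagy machinery to mitochondria, rose by small and similar amounts. BNIP3 (ENSG00000176171, chr10:131967684-131981967, minus strand) measured 5358, 5513 and 4411 in Control, 5933, 5641 and 4368 in siControl, 7153, 6447 and 5693 in siYAP, 6973, 5011 and 4928 in siTAZ, and 8589, 7661 and 6321 in siYAP+TAZ. The lowest co-knockdown library exceeded the highest siControl library by little. BNIP3 rose 1.41-fold (log2 fold change 0.50, SE 0.16, edgeR adjusted p = 0.042). This call was lost without siControl 22, siControl 27, siYAP+TAZ 20 or siYAP+TAZ 25 (adjusted p = 0.072 to 0.15) and with scaling by library totals alone (adjusted p = 0.055). Stretches of 50 bases shared with other annotated genes made up 12.9% of BNIP3, mainly with the pseudogene BNIP3P1, which reached at most 11 reads in any library.

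BNIP3L (ENSG00000104765, chr8:26383054-26505636, plus strand) had the smallest error of the 10 genes. It measured 1794, 1890 and 2034 in Control, 2039, 1955 and 1906 in siControl, 2351, 2248 and 2475 in siYAP, 2225, 2020 and 2057 in siTAZ, and 2832, 2706 and 2596 in siYAP+TAZ. The siYAP and siYAP+TAZ libraries were each above siControl without overlap, the siTAZ libraries overlapped it, and the siYAP+TAZ libraries were above all 12 other libraries. BNIP3L rose 1.38-fold in siYAP+TAZ (log2 fold change 0.46, SE 0.070, edgeR adjusted p = 0.00015). Its siYAP value was 0.26 (adjusted p = 0.087), and it passed there in DESeq2 (0.013), with scaling by library totals alone (0.035) and with Control as the reference (0.033).

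NDRG1 (ENSG00000104419, chr8:133237175-133302022, minus strand), a stress-responsive cytoplasmic protein induced in hypoxia and often studied as a metastasis suppressor, gained the most normalized counts. It measured 4874, 5106 and 4449 in Control, 5850, 5615 and 3891 in siControl, 7378, 6789 and 5281 in siYAP, 8124, 6914 and 5665 in siTAZ, and 19227, 17848 and 14432 in siYAP+TAZ. Single knockdown libraries overlapped siControl, and every co-knockdown library held more than the highest single knockdown library. NDRG1 rose 3.35-fold in the co-knockdown (log2 fold change 1.75, SE 0.18, edgeR adjusted p = 2.4e-05).

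ANKRD37 (ENSG00000186352, chr4:185396021-185400628, plus strand), a small ankyrin-repeat protein known as a HIF-1 target, did not pass in any edgeR comparison without a block for the run of library numbers. It measured 118, 141 and 118 in Control, 132, 125 and 106 in siControl, 143, 103 and 112 in siYAP, 121, 79.7 and 121 in siTAZ, and 147, 134 and 156 in siYAP+TAZ. The co-knockdown libraries lay above siControl without overlap, but the Control library 21, at 141, lay above one of them. Its log2 fold change was 0.27 with a 95% interval of −0.066 to 0.60 (edgeR adjusted p = 0.32). Of its exonic bases 40.3% lie opposite UFSP2, which measured 388 to 418 in siControl and 356 to 413 in siYAP+TAZ.

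To set genes beside each other, levels were divided by the kilobases covered by all annotated exons of a gene. Which transcripts were expressed was not tested, and a gene with many annotated exons can rank too low. The levels per kilobase and their order therefore depend on the annotation. In siControl the order was BNIP3 (1312 normalized counts per kilobase), HIF1A (1032), BNIP3L (474), NDRG1 (426) and EGLN1 (207). Below these came EPAS1 (204), ANKRD37 (53.7), CA12 (51.2), CA9 (18.8) and EGLN3 (15.1). In siYAP+TAZ the mean level of NDRG1 was 1431, beside 1858 for BNIP3 and 1800 for HIF1A. In siControl the neighbours BNIP3L and NDRG1, EGLN1 and EPAS1, ANKRD37 and CA12, and CA9 and EGLN3 differed by less than the larger of their SDs. Per kilobase, EGLN3, CA9 and CA12 had the lowest levels in siControl and were 3 of the 4 past both thresholds. CA12 was not resolved there from ANKRD37, which did not pass. In normalized counts the siControl mean of ANKRD37 (121) lay below that of CA12 (358).

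**Figure D2:**
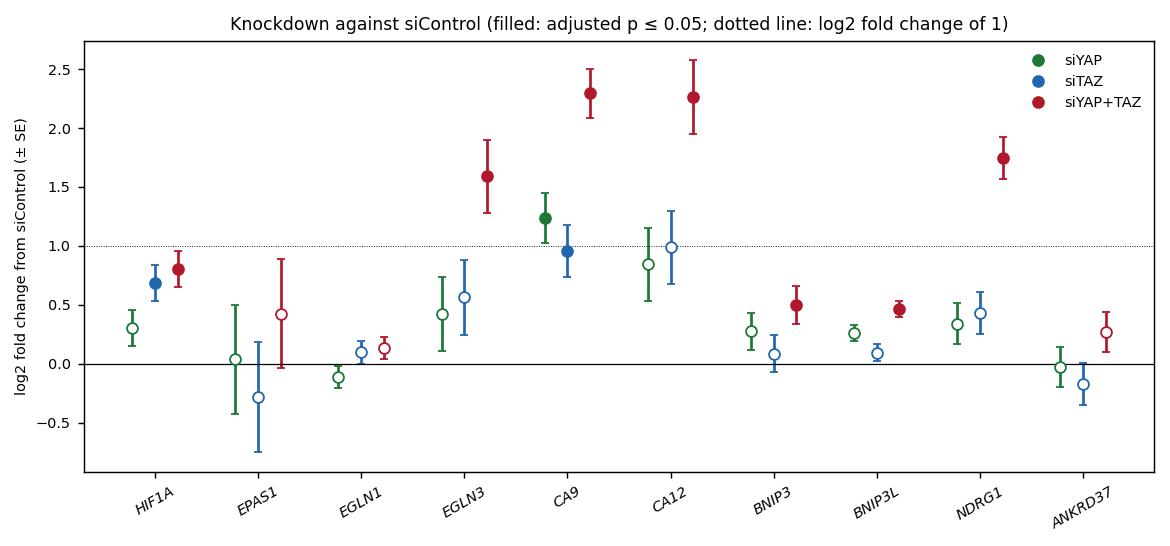
Log2 fold change from siControl with ± SE (y axis, edgeR) for the 10 genes (x axis) in siYAP, siTAZ and siYAP+TAZ, 3 libraries per group, filled where the adjusted p was at most 0.05. The siYAP+TAZ value is the highest of the 3 for every gene, and CA9 is filled in all 3 comparisons.

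In the fit without a block, few of these genes passed in the single knockdowns. All knockdown groups were compared with the same 3 siControl libraries. In siYAP, CA9 rose (log2 fold change 1.24, SE 0.21, edgeR adjusted p = 0.0084), which makes 1 of 10 genes against 0.477% of all genes, and it passed both thresholds against 0.0583% of all genes. HIF1A, CA9, CA12 and BNIP3L lay above siControl without overlap in siYAP, against 9.65% of all genes. In siTAZ, CA9 (0.96, SE 0.22, adjusted p = 0.028) and HIF1A rose, 2 of 10 against 1.34% of all genes, and none of the 10 passed both thresholds in edgeR or DESeq2 (4 of the 10 and 3023 of all genes had an unadjusted p under 0.05 in edgeR), against 0.164% of all genes in edgeR and 0.255% in DESeq2. HIF1A, CA9 and CA12 lay above siControl without overlap in siTAZ, against 10.7% of all genes. CA12 reached 0.85 in siYAP and 0.99 in siTAZ at adjusted p values of 0.28 and 0.14, with 95% intervals of 0.24 to 1.45 and 0.38 to 1.60. It passed in siYAP with the compared groups alone in the fit (0.024) and in siTAZ in DESeq2 (0.048). The median over the 10 genes was 0.29 in siYAP and 0.26 in siTAZ, beside 0.0025 and 0 over all genes. Without the 6 libraries that stood apart, which leaves 1 siTAZ library, 5 of the 10 genes passed in siYAP, with CA12, BNIP3, BNIP3L and NDRG1 added, against 3.30% of all genes that rose, and 3 in siTAZ, HIF1A, CA12 and NDRG1, against 1.60%. CA9 lost its siYAP call without siControl 17 or siYAP 18 (adjusted p = 0.056 and 0.051) and its siTAZ call without siControl 17, siControl 27, siTAZ 24 or siTAZ 29 (adjusted p = 0.076 to 0.10), without the 6 libraries (0.10) and with the compared groups alone in the fit (0.083).

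The non-targeting pool itself was compared with untransfected cells. Between siControl and Control, edgeR called 0 of the 10 genes and 0% of all genes, with 0 of the 10 and 398 of all genes at an unadjusted p under 0.05, and DESeq2 also called 0 of the 10. The log2 fold changes of the 10 genes ranged from −0.053 for ANKRD37 to 0.28 for CA9. Some 95% intervals were wide, −0.77 to 1.06 for EPAS1, −0.65 to 0.64 for EGLN3 and −0.21 to 0.76 for CA9. The lack of calls therefore does not show that the pool had no effect. Between siYAP and siTAZ, edgeR called 0 of the 10 genes, against 0.642% of all genes, while 3 of the 10 and 2576 of all genes had an unadjusted p under 0.05, and DESeq2 called 0 of the 10 and 1.88% of all genes. HIF1A was lower in siYAP than in siTAZ by a log2 value of −0.38, with a 95% interval of −0.67 to −0.084 and an adjusted p of 0.28.

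The co-knockdown was next set against each single knockdown. Against siYAP, CA12 (log2 fold change 1.42, edgeR adjusted p = 0.020), NDRG1 (1.40, 0.00054), EGLN3 (1.17, 0.039) and CA9 (1.06, 0.0025) were higher in siYAP+TAZ, 4 of 10 genes against 3.43% of all genes. Against siTAZ, CA9 (1.34, adjusted p = 0.00077), NDRG1 (1.31, 0.0012), CA12 (1.27, 0.033) and BNIP3L (0.37, 0.0048) were higher, again 4 of 10, against 3.06% of all genes. EGLN3 was at 1.03 against siTAZ (adjusted p = 0.066), and it passed in DESeq2 (0.0081), in edgeR without siYAP+TAZ 30 (0.025), without the 6 libraries that stood apart (0.00034) and with a block for the run of library numbers (1.3e-06). HIF1A did not pass in either. Against siYAP its value was 0.50 with a 95% interval of 0.20 to 0.79 (adjusted p = 0.075), and it passed in DESeq2 (0.022), in edgeR without siYAP 23 (0.033) or siYAP+TAZ 30 (0.028), without the 6 libraries (0.0012) and with the block (3.7e-06). Against siTAZ its value was 0.12 with a 95% interval of −0.18 to 0.41. The EGLN3 call against siYAP was lost without siYAP 18, siYAP 23, siYAP 28, siYAP+TAZ 20 or siYAP+TAZ 25 (adjusted p = 0.084 to 0.13) and with scaling by library totals alone (0.051), the CA12 call against siYAP without siYAP 18 or siYAP 23 (0.095 and 0.071), and the CA12 call against siTAZ without siTAZ 19, siTAZ 24 or siYAP+TAZ 30 (0.095, 0.11 and 0.058). With the compared groups alone in the fit, CA12 passed in neither comparison (adjusted p = 0.11 and 0.21).

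The interaction term measures by how much the co-knockdown departs from the sum of the single knockdowns on the log2 scale. Without a block, it passed in edgeR for 0 of the 10 genes and for 0.0106% of all genes. NDRG1 was the 1 gene of the set with an unadjusted p under 0.05, as had 1104 of all genes, at 0.97 (SE 0.25, unadjusted p = 0.0016, adjusted p = 0.46). Its single knockdown values of 0.34 and 0.43 lay beside 1.75 in the co-knockdown. DESeq2 gave the same size, 0.97, at an adjusted p of 0.039, and called 0.111% of all genes. With a block for the run of library numbers, which the labels do not name as sets, edgeR also called NDRG1, and 0.647% of all genes. For CA9 the interaction was 0.096 (SE 0.30), with single knockdown values of 1.24 and 0.96 beside 2.29 for both pools, and for HIF1A it was −0.19 (SE 0.21).

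**Figure D3:**
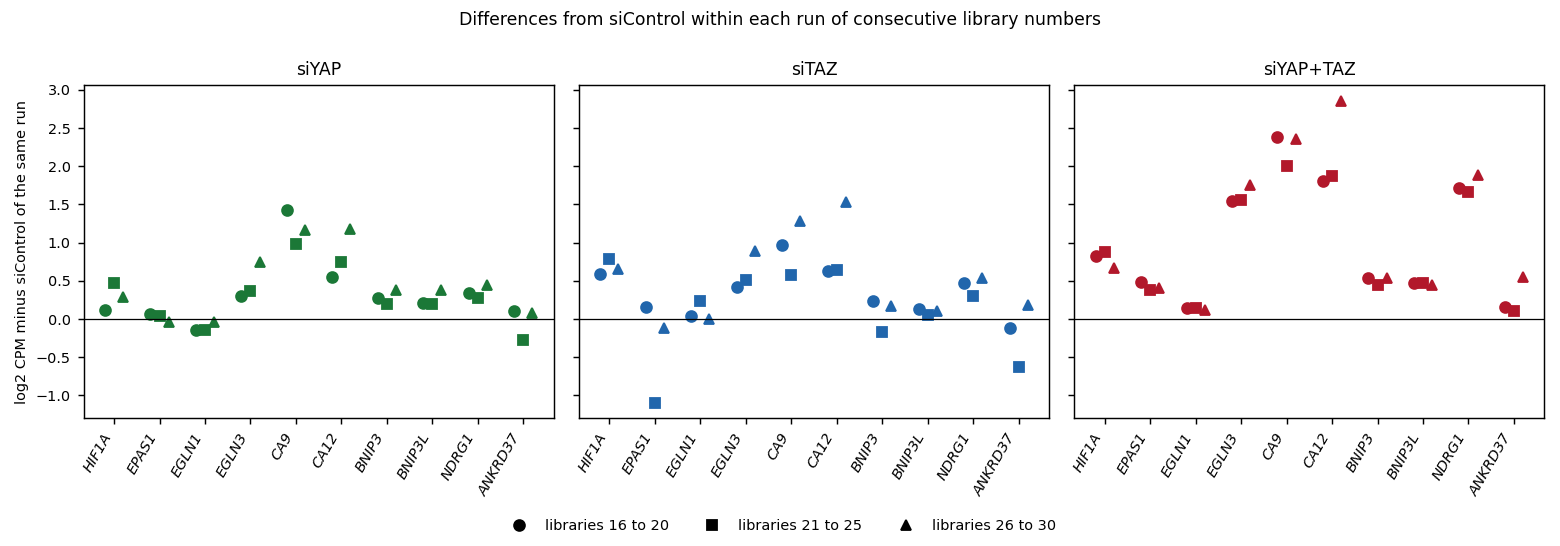
Log2 CPM of each knockdown library minus that of the siControl library in the same run of consecutive library numbers (y axis), for the 10 genes (x axis), with 1 panel per knockdown and 1 symbol per run. In siYAP+TAZ all 30 differences lie above 0, for which the share over all genes was not counted. In siTAZ the EPAS1 difference of the middle run lies at −1.10.

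The library numbers fall into 3 runs, 16 to 20, 21 to 25 and 26 to 30, each with 1 library of every group. The labels do not name these runs as sets. Within each run, the co-knockdown library was above its siControl library for all 10 genes. The log2 differences were 0.12 to 0.15 for EGLN1 and 0.10 to 0.55 for ANKRD37, which did not pass. The share of all genes above siControl in every run was not counted. As 18.2% of all genes lay above siControl without any overlap, the 10 of 10 is a description only. For EPAS1 the differences were 0.49, 0.38 and 0.41 on the log2 scale, although the levels of libraries 27 and 30 were far below those of the other runs. NDRG1 gave 1.72, 1.67 and 1.89, BNIP3L 0.47, 0.47 and 0.45, and EGLN3 1.54, 1.55 and 1.76. CA12 was the least even, with 1.81, 1.87 and 2.86. In siTAZ, EPAS1 gave 0.15, −1.10 and −0.11 and ANKRD37 −0.12, −0.63 and 0.18, so the siTAZ library 24 was low for both.

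Other genes of the pathway give the setting. The members of the lists were picked with earlier results of the same libraries known, and their counts are descriptions. The constant partner ARNT was at 0.20 (edgeR adjusted p = 0.10) and ARNT2 at 0.13 (0.80) in siYAP+TAZ, and HIF3A was not analysed here. Against siControl, 9.97% of all genes rose and 8.39% fell in siYAP+TAZ, which is the background for the lists that follow. Of 10 other genes of oxygen sensing and HIF turnover, among them VHL (0.060) and the asparaginyl hydroxylase HIF1AN (0.12), edgeR called 0 in siYAP+TAZ, with 1 at an unadjusted p under 0.05 (5709 of all genes), and DESeq2 and limma-voom also called 0. The 2 with the smallest p were P4HTM, a transmembrane prolyl hydroxylase, at 0.25 (adjusted p = 0.064), and SIAH2, a ubiquitin ligase of the EGLN proteins, at −0.20 (0.24). Of 6 co-activators and modulators of HIF, 2 rose, NCOA2 (0.39, 0.0044) and the acetyltransferase EP300 (0.23, 0.022).

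**Figure D4:**
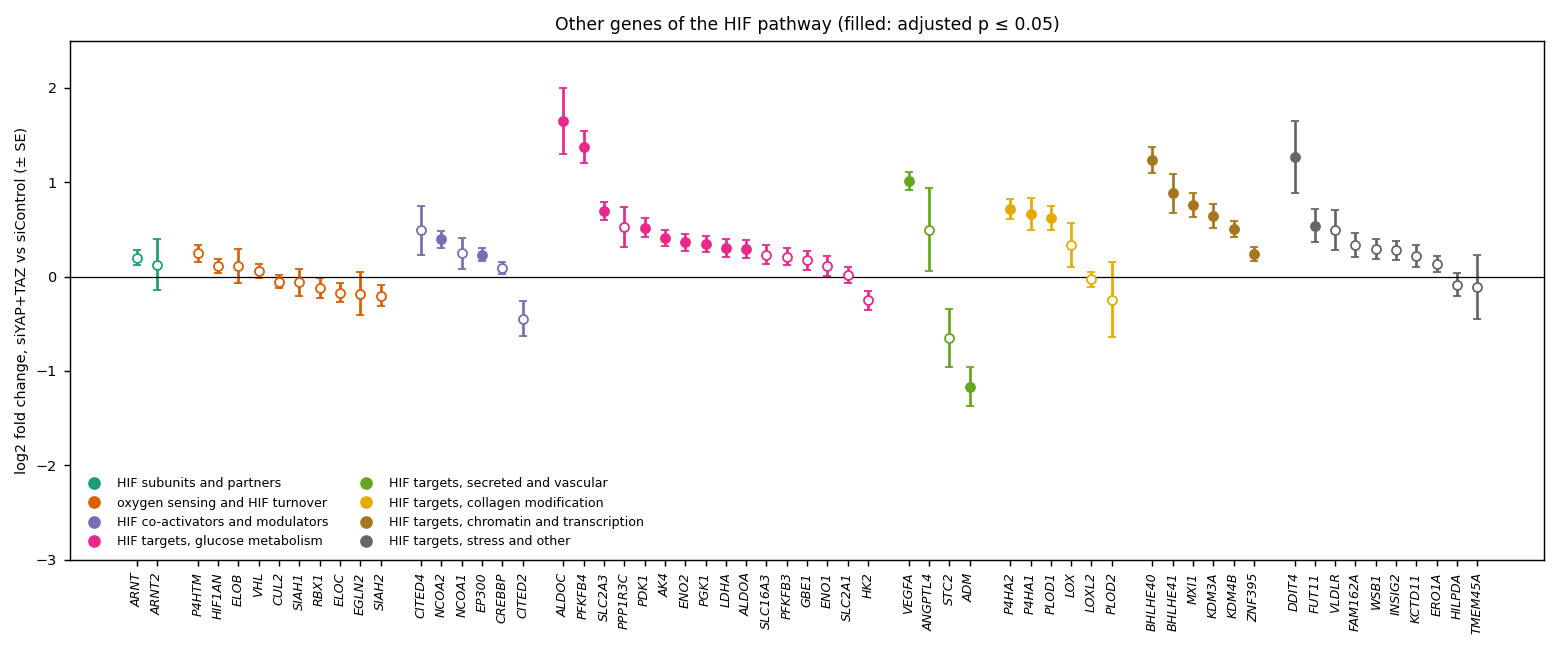
Log2 fold change in siYAP+TAZ against siControl with ± SE (y axis) for 60 other genes of the HIF pathway (x axis), grouped by list and ordered by value, filled where the edgeR adjusted p was at most 0.05. The 6 chromatin and transcription targets are all filled and above 0, the 10 oxygen-sensing genes are all open, and ADM is the filled point below 0.

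Of 42 other known HIF targets measured, 21 rose in siYAP+TAZ (against 9.97% of all genes), 1 fell (against 8.39%) and 20 did not pass, with a median log2 fold change of 0.34. Without the 6 libraries that stood apart, 29 rose and 3 fell, while over all genes 14.1% rose and 13.0% fell in that fit. In siYAP 0 rose and 1 fell (0.477% and 0.456% of all genes), and in siTAZ 2 rose and 1 fell (1.34% and 0.695%). Of 16 genes of glucose metabolism, 9 rose in siYAP+TAZ and 7 did not pass, while 15 of the 16 log2 fold changes were positive. HK2 lay below siControl without overlap (2985 to 3559 against 3602 to 4276 normalized counts) but did not pass. SLC2A1 (25156 to 25984) stayed within its siControl range (23225 to 27044). The smallest p values were those of SLC2A3, a glucose transporter (0.69, edgeR adjusted p = 6.7e-05), and PFKFB4, which sets the level of a glycolytic activator (1.38, 7.0e-05), and ALDOC, an aldolase, had the largest change (1.65, 0.0042). All 6 genes of chromatin and transcription rose, and those with the smallest p were the repressor BHLHE40 (1.24, 1.8e-05) and the histone demethylase KDM4B (0.51, 3.0e-04). Of 6 genes of collagen modification 3 rose, P4HA2 (0.72, 0.00012), PLOD1 (0.62, 0.0030) and P4HA1 (0.66, 0.013), and of 10 stress genes 2 rose, the mTORC1 inhibitor DDIT4 (1.27, 0.040) and FUT11 (0.54, 0.040). Among 4 secreted and vascular factors the directions split. VEGFA, the main vessel growth factor, rose 2.02-fold (1.01, 8.5e-07), whereas ADM, the vasodilator adrenomedullin and a standard hypoxia marker, fell in all 3 knockdowns, with log2 fold changes of −1.17 in siYAP+TAZ (adjusted p = 0.0018), −1.39 in siYAP (0.0084) and −1.42 in siTAZ (0.0058). VEGFA also rose in siTAZ (0.68, 0.0023), as did BHLHE40 (0.56, 0.046).

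The families of the single genes were mixed as well. Among 6 other carbonic anhydrases measured, CA11, a family member without enzyme activity, rose (1.79, edgeR adjusted p = 0.00015) from a siControl mean of 20.5 normalized counts to a siYAP+TAZ mean of 72.2, and the next, CA5B, was at 0.21 (0.32). Of 8 other mitophagy receptors and partners 2 rose, OPTN (0.41, 0.0058) and FKBP8 (0.31, 0.0095), and 1 fell, PHB2 (−0.30, 0.0089), against 9.97% and 8.39% of all genes. NDRG3 rose (0.24, 0.019), and NDRG4 was at 0.54 (0.22) with a mean of 62.8 normalized counts in siControl.

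Across the 15 libraries, the genes whose log2 CPM followed each of the 10 most closely, among 13209 genes that averaged 20 or more normalized counts, were as follows, by Pearson r over points that share groups and library depth. HIF1A was closest to SCD5 (r = 0.97) and DSTN (0.96), EPAS1 to MSI2 (0.97) and TBC1D8 (0.97), EGLN1 to WNK1 (0.90) and PHACTR4 (0.88), and EGLN3 to IER3 (0.97) and AHR (0.97). CA9 was closest to RARG (0.97) and AMPD3 (0.97), CA12 to SUFU (0.99) and IQSEC2 (0.98), BNIP3 to SCD (0.97) and TPBG (0.97), and NDRG1 to SOX4 (0.99) and SMIM14 (0.97). RARG was also closest to BNIP3L (0.97), followed by ARRB1 (0.96), and ANKRD37 had the loosest matches, BMP4 and ADGRL1 (both 0.82).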

How the data were processed

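Polyadenylated RNA of 15 MDA-MB-231 libraries (5 groups of 3, assigned by sample titles) was sequenced as single reads. The authors used the UTAP pipeline (1.10). After trimming with cutadapt, reads were aligned to GRCh38 by STAR 2.4.2a with GENCODE release 34, and the authors deposited raw counts per gene, which were the input here. Whether counting used the strand is not given in the sources used here. The table also holds 30 columns of normalized and rlog values per library and 70 columns of the authors' own comparisons (fold changes, p-values and the like), which were not used. All 18858 genes reached 5 reads in at least 1 library.

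Counts were normalized by TMM (factors 0.943 to 1.03) and tested by edgeR 4.0.16 under R 4.3.3 (quasi-likelihood, robust, all 15 libraries, no block), with Benjamini-Hochberg adjustment over all genes. As in the methods, the limits were 0.05 for the adjusted p and 1 for the size of the log2 fold change. A normalized count is the count divided by the TMM-scaled library size, times the mean of those sizes. Log2 CPM used a prior count of 2. The tests were first run on simulated data.

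The 10 genes and all lists were chosen with earlier results of these data known. Named from each other list were the 2 genes with the smallest p in siYAP+TAZ against siControl averaging 20 or more normalized counts, and also ADM, VEGFA and HIF1A-AS3. Lists with at most 3 genes were given in full. The list of pH regulators is not reported here. P4HA1, FKBP8, ALDOC, HK2, SLC2A1, VHL, HIF1AN and the named markers of cell types were named after their values were seen. Annotation came from GRCh38 and GENCODE release 44, promoters from RefSeq on GRCh38.p14. Alternatives were DESeq2 1.42.0, limma-voom (limma 3.58.1), other scalings and filters, the compared groups alone, Control in place of siControl, a block for each run of library numbers, leaving out each library in turn and, chosen after seeing the data, leaving out libraries 26 to 30 with siTAZ 24.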

Additional observations from a re-analysis of the deposited data

How the results depend on the processing

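The precision is set by 3 libraries per group and, for CA9, by 20 to 40 reads per reference library. In siYAP+TAZ against siControl, CA9, CA12, NDRG1 and EGLN3 passed both thresholds under every alternative, and 6 to 7 of the 10 genes passed the adjusted p when each library was left out. Among the other HIF targets, 15 to 23 passed when 1 library was left out, against 22. In those fits 7.43% to 8.71% of all genes rose and 5.70% to 6.80% fell, instead of 9.97% and 8.39%. No source says which libraries make up a set. As a hint from the data alone, 11 of 15 libraries deviated from their group mean most like libraries of their own run (lowest r within a run −0.026, median 0.19). With the run as a replicate block, more genes of the set passed in edgeR: 6 instead of 1 in siYAP (3.08% of all genes rose instead of 0.477%), 5 instead of 2 in siTAZ (6.03% instead of 1.34%), 8 instead of 4 for siYAP+TAZ against siYAP (8.59% instead of 3.43%), 7 instead of 4 against siTAZ, with ANKRD37 at 0.45 and an adjusted p of 0.049 (7.37% instead of 3.06%), 1 instead of 0 for siYAP against siTAZ (HIF1A; 7.32% passed in either direction instead of 0.642%) and 1 instead of 0 for the interaction (NDRG1; 0.647% instead of 0.0106%). In siYAP+TAZ against siControl 7 passed with and without the replicate block, while 14.6% of all genes rose instead of 9.97%. Without libraries 26 to 30 and siTAZ 24, an alternative chosen after seeing the data in which the 1 siTAZ library left is assumed to vary like the other groups, 8 passed in siYAP+TAZ against siControl (14.1% of all genes rose), 5 in siYAP (3.30%), 9 for siYAP+TAZ against siYAP (8.81%) and 1 (NDRG1) for the interaction (0.562% in either direction). DESeq2 called 2 in siYAP (1.09% of all genes rose), 3 in siTAZ (2.63%), 5 for siYAP+TAZ against siYAP (4.30%), 5 against siTAZ (3.88%) and 1 (NDRG1) for the interaction (0.111% in either direction). Scaling by library totals gave 2 in siYAP (0.758%) and 1 in siTAZ (1.72%), the compared groups alone 2 (0.424%) and 1 (0.620%), and Control as the reference 2 in siYAP (0.705%) and, past both thresholds, 1 in siTAZ (0.244%). Over all genes, scaling by totals moved the share of higher genes among those called from 54.3% to 64.3%. The causes were not tested.

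Leaving out each library in turn gave, at the adjusted p, 0 to 1 genes in siYAP (0.0795% to 0.355% of all genes rose), 0 to 2 in siTAZ (0.281% to 2.72%), 2 to 5 for siYAP+TAZ against siYAP (1.54% to 2.45%) and 3 to 4 against siTAZ (1.51% to 2.77%). Past both thresholds it gave 0 to 1 (0.0106% to 0.0742%), 0 to 1 (0.0106% to 0.461%), 2 to 4 (0.435% to 0.599%) and 2 to 3 (0.398% to 0.700%).

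Some values that did not pass the test changed sign. In siYAP, ANKRD37 was at 0.023 with scaling by totals and EGLN1 at 0.0081 with Control as the reference. Without libraries 26 to 30 and siTAZ 24, EPAS1 in siTAZ was at 0.17, EGLN3 in siControl against Control at 0.12, the BNIP3 interaction at −0.015, and in siYAP against siTAZ EPAS1 was at −0.0999, CA12 at 0.040 and BNIP3 at −0.024. When each library was left out, siControl against Control ranged from −0.15 to 0.037 for HIF1A, −0.049 to 0.40 for EPAS1, −0.24 to 0.29 for EGLN3, −0.026 to 0.29 for CA12, −0.032 to 0.18 for BNIP3, −0.023 to 0.25 for NDRG1 and −0.13 to 0.038 for ANKRD37. In siYAP the range was −0.22 to 0.31 for EPAS1 and −0.18 to 0.091 for ANKRD37, and in siTAZ −0.097 to 0.17 for BNIP3. In siYAP against siTAZ it was −0.31 to 0.025 for EGLN3, −0.31 to 0.18 for CA12, −0.21 to 0.044 for NDRG1 and −0.0091 to 0.26 for ANKRD37. In siYAP+TAZ against siTAZ it was −0.044 to 0.11 for EGLN1, and for the CA9 interaction −0.075 to 0.23.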
